A study of Mus musculus with 7 samples.

Results

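Basement membrane components were followed across 7 arrays of mouse mammary glands kept in organ culture. The 10 genes were given by name: Col4a1 and Col4a2 of collagen IV, the laminin chains Lama4, Lama5, Lamb1, Lamb2 and Lamc1, the nidogens Nid1 and Nid2, and Hspg2, which encodes perlecan. They were looked up among 13971 genes that the arrays' accessions matched in RefSeq. A probe was matched for 8 of the 10, with 1 probe each, and Lama5 and Hspg2 had none by that route. The scanner software called all 8 probes good (above local background, regular spot) on at least 1 array, and 5 of them, Col4a1, Col4a2, Lamb1, Lamc1 and Nid1, on all 7 arrays.

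A basement membrane is a thin sheet of matrix that lies under epithelium and around capillaries, fat cells, muscle fibres and nerves. Laminins, trimers of an α, a β and a γ chain, form a network on the cell surface through integrins and dystroglycan, collagen IV forms a covalently linked network of its own, and nidogens and perlecan bridge them. In the mammary gland the sheet separates the ducts from the stroma, epithelial cells need contact with laminin for milk protein expression, and matrix metalloproteinases degrade the sheet when the gland regresses.

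Each array held a single group, so there were no replicates, and no test or p-value is given. Of the groups, 3 were the study's own, all cultured for 24 days: αERKO glands, which lack estrogen receptor α, glands labelled βERKO, meaning knocked out for estrogen receptor β by their label, and wild-type (WT) C57 glands treated with 7,12-dimethylbenz[a]anthracene (DMBA), a carcinogen. Another 4 arrays held WT C57 glands without DMBA after 10 days and after 24 days, and WT Balb/c glands after 24 days with and without Vitamin D5. By the study's protocol, glands came from females aged 4 weeks. The paper gives this for C57 and knockout mice and does not mention Balb/c mice. The RNA of 5 mice was pooled for each of the study's groups. The knockouts carry a C57BL6/129SV background and the WT controls a C57 background, so genotype and strain background cannot be told apart. Pretreatment of the mice is stated both as 25 ng EGF with 1 mg progesterone daily for 5 days and as 1 µg estrogen with 1 mg progesterone for 9 days. By the study's protocol, culture consisted of 10 days of growth in hormones followed by 14 days of regression with insulin as the remaining hormone. A culture of 10 days thus covers the growth phase only. The study's protocol adds DMBA at 2 µg/ml on day 3 for 24 hours; the titles name DMBA for the WT array, not for the knockout arrays, and neither DMBA nor the Vitamin D5 dose is given for the Balb/c arrays. The study describes αERKO glands as free of the alveolar lesions that DMBA induces in this culture.

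Between 68.4% and 74.2% of the 34967 gene probes had a good spot, depending on the array, with a median intensity between 39.1 and 53.0 over a local background between 80 and 83. Values below are log2 levels, meaning log2 of a probe's intensity over the median of the gene probes on its array. They compare arrays for 1 probe, not 1 gene with another. On the array labelled βERKO the probe of Esr2, the estrogen receptor β gene, stood at 0.87, the highest level of the 7 arrays and 1 of 2 called good, against -5.88 near background on the WT array with DMBA. The other good spot was on the WT C57 array at 24 days without DMBA, at -0.55, and the probe was near background on all remaining arrays. The label names this gene as knocked out, but 1 probe cannot settle the genotype, and the paper states that all mice were genotyped. The array is therefore called by its label throughout. The Esr1 probe was near background on the αERKO array at -3.76, but it was also near background on 4 other arrays and was called good on the remaining 2 only, WT with DMBA at -1.02 and Balb/c with Vitamin D5 at -0.74.

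Promoter sequences from RefSeq (GRCm38.p6) are shown for members on either side of the main pattern below: Lamb1 and Nid1, which were higher on the study's arrays, and Lamb2, which was not. An entry was found for 7 of the 10 members, Col4a1, Col4a2, Lama5, Lamb1, Lamb2, Nid1 and Hspg2. Each line gives the 250 bases before the annotated start, 5′ to 3′ on the gene's strand, with motif letters in capitals: GGGCGG or CCGCCC, the GC box, and CCAAT or ATTGG, the CCAAT box. The TATA box, as TATAAA or TTTATA, was also searched on both strands, and the 3 motifs share no overlap in these windows.
Lamb1, chr12:31265043-31265292, + strand: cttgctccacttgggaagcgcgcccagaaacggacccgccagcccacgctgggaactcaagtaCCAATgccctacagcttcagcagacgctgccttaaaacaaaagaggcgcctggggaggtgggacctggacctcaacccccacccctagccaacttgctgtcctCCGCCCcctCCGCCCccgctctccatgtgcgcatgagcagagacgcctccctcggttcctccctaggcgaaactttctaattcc
Nid1, chr13:13437352-13437601, + strand: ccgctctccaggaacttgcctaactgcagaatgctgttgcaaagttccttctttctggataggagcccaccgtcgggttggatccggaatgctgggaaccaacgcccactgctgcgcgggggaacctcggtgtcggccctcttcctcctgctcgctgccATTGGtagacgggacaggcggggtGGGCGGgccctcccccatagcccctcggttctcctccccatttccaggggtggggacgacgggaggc
Lamb2, chr9:108479612-108479861, + strand: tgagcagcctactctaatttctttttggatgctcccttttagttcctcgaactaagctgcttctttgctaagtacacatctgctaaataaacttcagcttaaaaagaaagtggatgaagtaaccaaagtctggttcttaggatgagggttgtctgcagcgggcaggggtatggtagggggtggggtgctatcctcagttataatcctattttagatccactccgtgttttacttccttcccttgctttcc
The Lamb1 window held 2 GC boxes and 1 CCAAT box, and the Nid1 window held 1 of each. None of the 3 motifs was in the Lamb2 window. Among 32851 promoters of the same length, 32.7% held a GC box, 33.8% a CCAAT box and 12.4% a TATA box, so that most promoters lack any given 1 of them. G and C made up 62.0% of the Lamb1 window, 64.4% of the Nid1 window and 43.6% of the Lamb2 window, beside a median of 52.4% over all promoters.

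Col4a1 and Col4a2 are neighbours that are read away from each other, head to head. Their annotated starts lie 21 bases apart, with the start of Col4a2 (+ strand) at 11312805 and that of Col4a1 (- strand) at 11312826 on chromosome 8, so that 22 bases belong to the start of both transcripts. They are shown because the levels of both genes are compared next, in lower case since they lie outside the windows searched.
Shared stretch, chr8:11312805-11312826, + strand: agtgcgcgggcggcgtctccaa
The 250 bases before each start were G and C for 74.4% in Col4a1 and 73.6% in Col4a2. A CCAAT box was found in both windows and 2 GC boxes in that of Col4a2 alone. The shared stretch, which was not searched, also holds the letters GGGCGG of the GC box.

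The collagen IV genes had their highest levels on the study's 3 arrays. Col4a1, the most abundant basement membrane collagen chain together with its partner Col4a2, had log2 levels of 4.27 in αERKO, 4.75 in βERKO-labelled and 5.24 in WT glands with DMBA. On the other arrays its level was 3.25 for WT at 24 days without DMBA, 2.26 for WT at 10 days, 1.82 for Balb/c and 2.04 for Balb/c with Vitamin D5. All 3 study arrays were above the other 4, with a gap of 1.01 between the lowest of the former and the highest of the latter. Col4a2, whose chain joins that of Col4a1 in the same trimer, stood at 3.00, 3.57 and 4.38 on the αERKO, βERKO-labelled and WT with DMBA arrays. It stood at 2.39 for WT at 24 days, 1.01 for WT at 10 days, 0.53 for Balb/c and 0.92 for Balb/c with Vitamin D5. The order of the 7 arrays was the same for both genes, from Balb/c at the bottom to WT with DMBA at the top, and the gap for Col4a2 was 0.61. Over the 7 arrays their levels had a Pearson r of 0.99, a description over points that differ in strain, genotype and treatment.

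Among the laminin chains, Lamb1 and Lamc1 were higher on the study's arrays and Lamb2 and Lama4 were not. Lamb1 encodes the β chain used by most embryonic and vascular laminins. Its levels were 1.13 on the αERKO array, 1.10 on the βERKO-labelled array and 1.45 on the WT array with DMBA, against -0.24 for WT at 24 days, -1.06 for WT at 10 days, -0.05 for Balb/c and -0.63 for Balb/c with Vitamin D5. The study's arrays lay within 0.35 of each other and at least 1.15 above the other 4. Lamc1 encodes the γ chain shared by most laminins, and its levels were 3.90, 4.10 and 3.99 on the αERKO, βERKO-labelled and WT with DMBA arrays. They were 3.13 for WT at 24 days, 2.75 for WT at 10 days, 2.77 for Balb/c and 2.74 for Balb/c with Vitamin D5, which made Lamc1 separate by 0.76 with little spread inside either set. Its levels had a Pearson r of 0.97 with those of Col4a1 and of 0.94 with those of Col4a2 and of Lamb1 over the 7 arrays.

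Lamb2 encodes the β chain that takes the place of Lamb1 at neuromuscular junctions, in kidney and in mature vessel walls. Levels of Lamb2 were 1.89 on the αERKO array, 1.41 on the βERKO-labelled array and 1.30 on the WT array with DMBA, with 1.01 for WT at 24 days, 1.38 for WT at 10 days, 0.97 from an irregular spot for Balb/c and 1.51 for Balb/c with Vitamin D5. Both sets overlapped, and the whole range of Lamb2 over 7 arrays, 0.92, was smaller than that of any other member. Lama4, the α chain of endothelial and adipose laminins, was near background on 6 of 7 arrays, where its values lay between -3.29 and -1.31. It was called good on the Balb/c array alone, at -0.79. Little can therefore be said of this chain, and Lama5, the α chain of ductal and mature vascular laminins, was not measured by a matched probe.

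The nidogens link the laminin network to collagen IV. Nid1 had levels of 4.17 on the αERKO array, 4.93 on the βERKO-labelled array and 4.48 on the WT array with DMBA, against 2.45 for WT at 24 days, 2.87 for WT at 10 days, 2.96 for Balb/c and 3.34 for Balb/c with Vitamin D5. The 3 study arrays were again on top, by 0.83, but here the WT array at 24 days without DMBA was the lowest of all, whereas for collagen IV it was the highest of the 4. Nid2 stood at 3.53 on the αERKO array, 1.82 on the βERKO-labelled array and 1.87 on the WT array with DMBA. Elsewhere Nid2 was at -0.44 for WT at 24 days and -0.01 for Balb/c, and near background for WT at 10 days and for Balb/c with Vitamin D5. Nid2 thus had the widest gap of the members, 1.84, and was the one member whose αERKO level stood over 2-fold above both other study arrays. The Pearson r between Nid1 and Nid2 over the 7 arrays was 0.72.

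**Figure D1:**
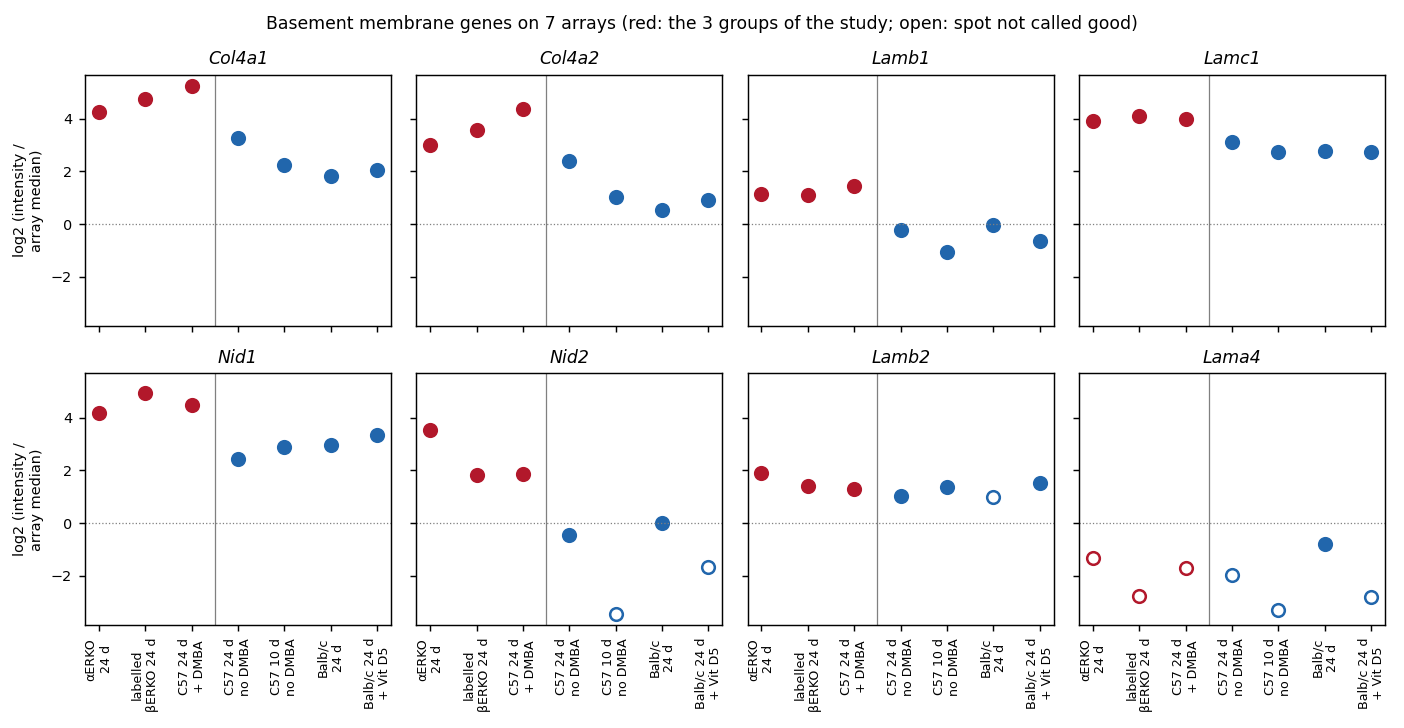
Each panel plots 1 gene's log2 intensity over the array median (vertical axis) on each of the 7 arrays (horizontal axis), 1 point per array, red for the study's 3 groups and blue for the other 4, open where the spot was not called good. For Col4a1, Col4a2, Lamb1, Lamc1, Nid1 and Nid2 every red point lies above every blue point, by 0.61 (Col4a2) to 1.84 (Nid2), while Lamb2 spans 0.92 in all and Lama4 has a single filled point.

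Counted together, 6 of the 8 measured members had all 3 study arrays above all 4 others, and none had them below. This split of the arrays was chosen after the values were seen. Of 32062 probes called good on at least 1 array, 8.88% had the study's arrays on top and 9.63% had them at the bottom. The array with the highest level was a study array for 7 of the 8 members (all but Lama4) and for 43.5% of probes. Leaving out arrays can only keep or raise this count, so it is no check of the split. The count was 6 without the αERKO array, the βERKO-labelled array, the WT array with DMBA or both Balb/c arrays. The study's arrays were then on top for 12.3%, 13.2%, 13.6% and 13.0% of probes. Summed over the 8 genes, the level was 78.1 to 106 array medians on the study's arrays and 24.1 to 32.9 on the others. The study's 3 arrays differ from the other 4 in genotype, strain and treatment at once, so what they share cannot be told apart by this comparison.

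The comparison that holds strain, genotype and time fixed is DMBA against no DMBA in WT glands at 24 days. The titles give no pretreatment, and the array without DMBA is not among the study's groups. A difference in pretreatment therefore cannot be told apart from DMBA. Of 7 members good on at least 1 of the 2 arrays, 5 were over 2-fold higher with DMBA and none was lower, beside 10.1% of all probes higher and 8.46% lower. The levels were 3.96-fold higher for Col4a1, 3.97-fold for Col4a2, 3.23-fold for Lamb1, 4.08-fold for Nid1 and 4.98-fold for Nid2. Lamc1 was 1.82-fold higher and Lamb2 differed by a log2 ratio of 0.29. The median log2 ratio of the members was 1.98, against -0.13 over all probes. For scale, the log2 ratios of 532 pairs of probes for the same accession differed with an SD of 0.30 within this comparison, which measures disagreement between probes and not between glands. With a normexp background correction 4 members stayed over 2-fold and Lamb1 had a log2 ratio of 0.99.

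Other basement membrane genes were partly higher with DMBA. Of 18 tested in a list of 24, 8 were over 2-fold higher and 1 was lower, with a median log2 ratio of 0.88. Named by size, these were Fbln2 at 3.04, an elastic fibre and basement membrane glycoprotein, Lama2 at 2.24, the laminin α chain of muscle and nerve, Lama1 at 1.83, Sparc at 1.82, a collagen-binding glycoprotein, and Smoc1 at 1.79. Among 9 enzymes and chaperones of collagen processing 3 were higher, among them Lox at 2.59 and Plod1 at 1.26, which cross-link and hydroxylate collagen. Of 8 genes of matrix degradation 5 were higher, with Mmp2, a gelatinase that cleaves collagen IV, at 2.68, Mmp3 at 2.65, the inhibitor Timp3 at 1.64 and the plasminogen activator Plau at 1.21. Of 9 receptors 1 was higher and 2 were lower: Itga7, a laminin receptor chain of muscle, at 1.30, Itgb4, the hemidesmosome integrin chain of epithelium, at -1.36, and the syndecan Sdc4 at -1.09.

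Markers of several cell types differed in the same comparison. Over 2-fold higher with DMBA were 10 of 10 tested endothelial markers (median log2 ratio 2.11), 7 of 8 pericyte and smooth muscle markers (2.33), 8 of 8 fibroblast markers (3.01) and 6 of 8 adipocyte markers (1.68), while 4 of 8 luminal epithelium markers were lower (-0.89 as the median). Of 6 myoepithelium markers 2 were higher and 2 lower (-0.03). Among the markers counted as higher, Flt1, Des, Col1a1, Col1a2 and Thy1 were near background without DMBA, so their fold differences are uncertain. The part of all these markers in the result was not tested. In these bulk samples a larger share of a cell type and more RNA per cell of that type cannot be told apart.

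**Figure D2:**
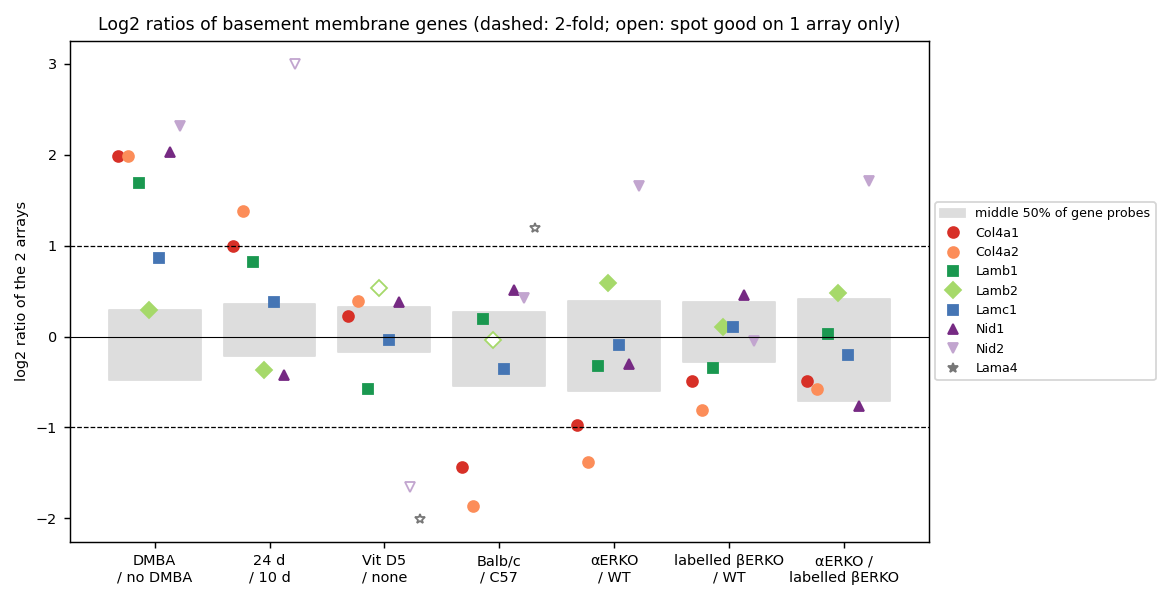
Log2 ratios (vertical axis) of the members in 7 comparisons of 2 arrays each (horizontal axis), 1 symbol per gene, open where the spot was good on 1 array only; grey boxes span the middle 50% of tested gene probes and dashed lines mark 2-fold. With DMBA all 7 members tested lie above 0 and 5 lie above the upper dashed line, whereas in βERKO-labelled against WT none lies outside the dashed lines.

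Culture time was compared in WT glands without DMBA, 24 against 10 days, which shares the 24-day array with the DMBA comparison. By the protocol only the 24-day glands had the regression phase with insulin alone. Time and the change of hormones therefore cannot be told apart. Of 7 members tested, 2 were over 2-fold higher at 24 days and none was lower, beside 6.05% of probes higher and 6.34% lower. Col4a2 was 2.61-fold higher, Col4a1 lay at the 2-fold line with a log2 ratio of 1.00, and Nid2, near background at 10 days, was at least 2.45-fold higher. Lamb1 had a log2 ratio of 0.82 and Lamc1 of 0.38, while Lamb2 at -0.37 and Nid1 at -0.43 were on the other side of 0. The median was 0.82 for the members and 0.09 for all probes. Of 18 other basement membrane genes 1 was higher (Smoc1, 1.18) and 6 were lower, among them Fras1 at -1.64, a protein of epithelial basement membranes, Lamb3 at -1.15 and Col18a1 at -1.13. Higher at 24 days were 6 of 8 adipocyte markers and 4 of 9 endothelial markers, and of 6 myoepithelium markers 4 were lower and 1 was higher (median log2 ratio -1.31), whose part in the result was not tested. With a normexp background correction the count of members over 2-fold was 0, as Col4a2 then lay at the 2-fold line and Nid2 at a log2 ratio of 0.61.

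Strain was compared between Balb/c and C57 glands at 24 days. The C57 array was without DMBA, while the Balb/c title does not say whether DMBA was given. A difference in DMBA exposure therefore cannot be told apart from strain. Col4a1 was 2.71-fold lower and Col4a2 3.65-fold lower in Balb/c, and Lama4, near background in C57, was at least 1.77-fold higher. These were the 3 of 8 members whose measured values lay over 2-fold apart, 1 higher and 2 lower, beside 9.17% of probes higher and 9.33% lower. The other members had log2 ratios between -0.36 for Lamc1 and 0.51 for Nid1, and the median was 0.08 against -0.15 over all probes. Of 17 other basement membrane genes 3 were higher and 1 was lower, among them Smoc1 at -2.14. Lower in Balb/c were also 6 of 8 adipocyte markers (median log2 ratio -2.80) and 5 of 10 endothelial markers, with 1 endothelial marker higher, and their part in the result was not tested.

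With Vitamin D5, none of 8 members was over 2-fold higher in Balb/c glands and 2 were lower, beside 5.12% of probes higher and 7.06% lower. Both were near background on the array with Vitamin D5, so that Nid2 was at least 3.14-fold lower and Lama4 at least 2.13-fold lower. Log2 ratios of the other 6 lay between -0.58 for Lamb1 and 0.54 for Lamb2, with Col4a1 at 0.22 and Col4a2 at 0.39. The median over the 8 members was 0.09, as over all probes. Of 16 other basement membrane genes 1 was higher (Smoc1, 1.21) and none lower, of 10 receptors none was higher and 1 lower, and of 10 endothelial markers none was higher and 1 lower. With a normexp background correction neither Nid2 nor Lama4 stayed over 2-fold, and the count of members was 0.

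In αERKO glands against WT with DMBA, the members divided. Nid2 was 3.15-fold higher in αERKO, Col4a2 was 2.60-fold lower and Col4a1 1.96-fold lower, just inside the 2-fold line (outside it with a normexp background correction). Of 7 members tested 1 was thus over 2-fold higher and 1 lower, beside 11.7% of probes higher and 14.1% lower. The remaining log2 ratios were 0.59 for Lamb2, -0.10 for Lamc1, -0.31 for Nid1 and -0.32 for Lamb1. The median was -0.31 for the members and -0.09 for all probes. The SD of a single probe's log2 ratio, estimated from probe pairs, was 0.59 in this comparison. That is about the size of the Lamb2 ratio and the largest SD of the 7 comparisons.

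Receptors and processing enzymes stood lower on the αERKO array. Of 9 receptors tested 5 were over 2-fold lower and none higher, among them Itgb4 at -1.79, Itga7 at -1.17, the collagen receptor Ddr1 at -1.16 and Sdc4 at -1.07. Lower by over 2-fold were also 3 of 9 processing genes, Lox at -1.78, Plod1 at -1.15 and Plod2 at -1.11, and 4 of 8 degradation genes, with Mmp3 at -1.39, Mmp9 at -1.37 and Mmp2 at -1.13. Other basement membrane genes went both ways, 5 higher and 5 lower of 18. The largest log2 ratios among those good on both arrays were -2.48 for Tinagl1, 1.98 for Fbln1, 1.77 for Col4a6, 1.60 for Smoc1 and -1.59 for Fbln2.

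Cell type markers differed strongly on this array. All 10 skeletal muscle markers were over 2-fold higher in αERKO than in WT with DMBA (median log2 ratio 8.32), and their summed level was 2445 array medians on the αERKO array, 52.1 on the βERKO-labelled array and 8.73 to 11.0 on the other 5. Lower were 5 of 6 myoepithelium markers and 3 of 8 luminal epithelium markers, and of 10 endothelial markers 2 were higher and 4 lower. Among those 4, Flt1 was near background on the αERKO array. The part of all these markers in the members' ratios was not tested.

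On the array labelled βERKO, no member was over 2-fold from WT with DMBA. All 7 tested lay between -0.81 (Col4a2) and 0.46 (Nid1) in log2 ratio, with Col4a1 at -0.49, Lamb1 at -0.35, Nid2 at -0.05, Lamb2 at 0.10 and Lamc1 at 0.11. The share of all probes was 6.96% higher and 8.37% lower, and the median was -0.05 for members and 0.09 for all probes. Over 2-fold lower on the same array were 9 of 10 endothelial markers (median log2 ratio -1.36), 5 of 8 fibroblast markers (-1.08) and 4 of 8 pericyte and smooth muscle markers (-1.10), while 6 of 7 skeletal muscle markers were higher (2.40). Among those 4, Rgs5 was near background and Myh11 had no good spot on this array. The endothelial marker Flt1, counted as lower, was also near background on it. The part of all these markers in the members' ratios was not tested. Of 18 other basement membrane genes 6 were lower, among them Lama1 at -2.18, Lama2 at -2.16, Fbln2 at -1.96 and Tinagl1 at -1.53, and 1 was higher, Col4a6 at 2.44, a chain of epithelial and smooth muscle collagen IV.

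Set against each other, the αERKO array had Nid2 3.27-fold above the array labelled βERKO. This was 1 of 7 members over 2-fold higher, with none lower, beside 13.5% and 16.6% of probes. The other log2 ratios ran from -0.76 for Nid1 through -0.57 for Col4a2 and -0.49 for Col4a1 to 0.48 for Lamb2, and the median was -0.20 against -0.18 over all probes. Receptors were over 2-fold lower in αERKO for 7 of 9 tested, with Itgb4 at -2.78, Sdc4 at -1.67 and Ddr1 at -1.63. In the same comparison 6 of 8 luminal epithelium markers (median log2 ratio -1.43) and 4 of 6 myoepithelium markers (-1.55) were over 2-fold lower, while 10 of 10 skeletal muscle markers (7.73), 7 of 8 fibroblast markers (2.16) and 1 of the 6 myoepithelium markers were higher. The last was Myh11, which had no good spot on the array labelled βERKO. The part of all these markers in these ratios was not tested. The 3 comparisons among the study's groups share arrays, so their ratios are not independent of each other.

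**Figure D3:**
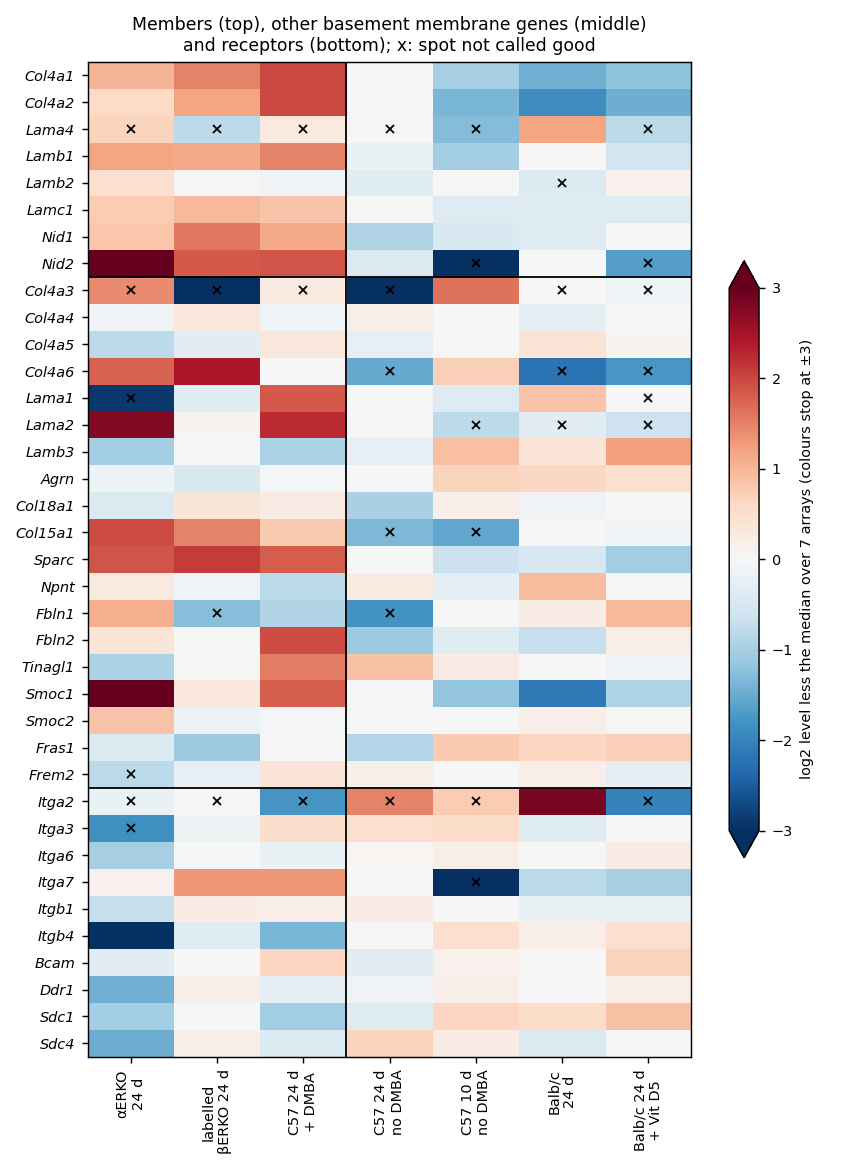
Colours give each gene's log2 level (rows) on each array (columns) less its median over the 7 arrays, red for above and blue for below, ending at 3 either way; horizontal lines part the members, other basement membrane genes and receptors, and an x marks a spot not called good. The red block of 6 members on the 3 study arrays at the left is shared by Sparc and Col15a1, while Itgb4 and Lamb3 are blue on the αERKO array.

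Beyond the members, the same split of the arrays was counted in the other lists, with genes named after their values were seen. Over all probes, 8.88% had the study's arrays above and 9.63% had them below. Of 19 other basement membrane genes, 4 had all 3 study arrays above the other 4 (Lama2, Col15a1, Sparc and Smoc1) and 1 had them below (Agrn). Sparc stood at 7.57 to 7.84 on the study's arrays and 4.71 to 5.75 on the others. Lamb3, a laminin β chain of epithelium, overlapped, at 2.32 to 3.33 against 3.08 to 4.56. Of 10 receptors 1 was above, Itga7, by a gap of 0.12, and 1 was below, Itgb4, which is near the shares over all probes. Itgb4, the hemidesmosome receptor chain, had 1.16 on the αERKO array, 2.95 on the WT array with DMBA and 3.94 on the βERKO-labelled array, all below the 4.31 to 4.81 of the other arrays. Of collagen processing genes 4 of 9 were above (Plod1, Serpinh1, Lox and Loxl2) and P4ha1 below, and of degradation genes Mmp2 and Mmp9 of 8 were above.

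Marker lists were counted by the same split, beside 8.88% of all probes above and 9.63% below. On the study's 3 arrays 9 of 11 endothelial, 7 of 8 adipocyte, 5 of 8 fibroblast, 5 of 8 pericyte and smooth muscle and 4 of 6 Schwann cell markers were above all other arrays, as was 1 of 10 skeletal muscle markers. None of 6 myoepithelium markers was on either side, 3 of 8 luminal epithelium markers were below, and of 5 macrophage markers 2 were above and 1 below. The summed endothelial level was 66.3 to 173 array medians against 14.6 to 39.6, with Cdh5 near background on 5 of the 7 arrays. The adipocyte sum was 1813 to 3478 against 327 to 1228 and the fibroblast sum 86.0 to 426 against 15.9 to 53.0, with Col1a2 near background on 3 of the other 4 arrays. For luminal epithelium the order was reversed, 448 to 857 against 911 to 1200. The part of these cell types in the members' levels was not tested.

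**Figure D4:**
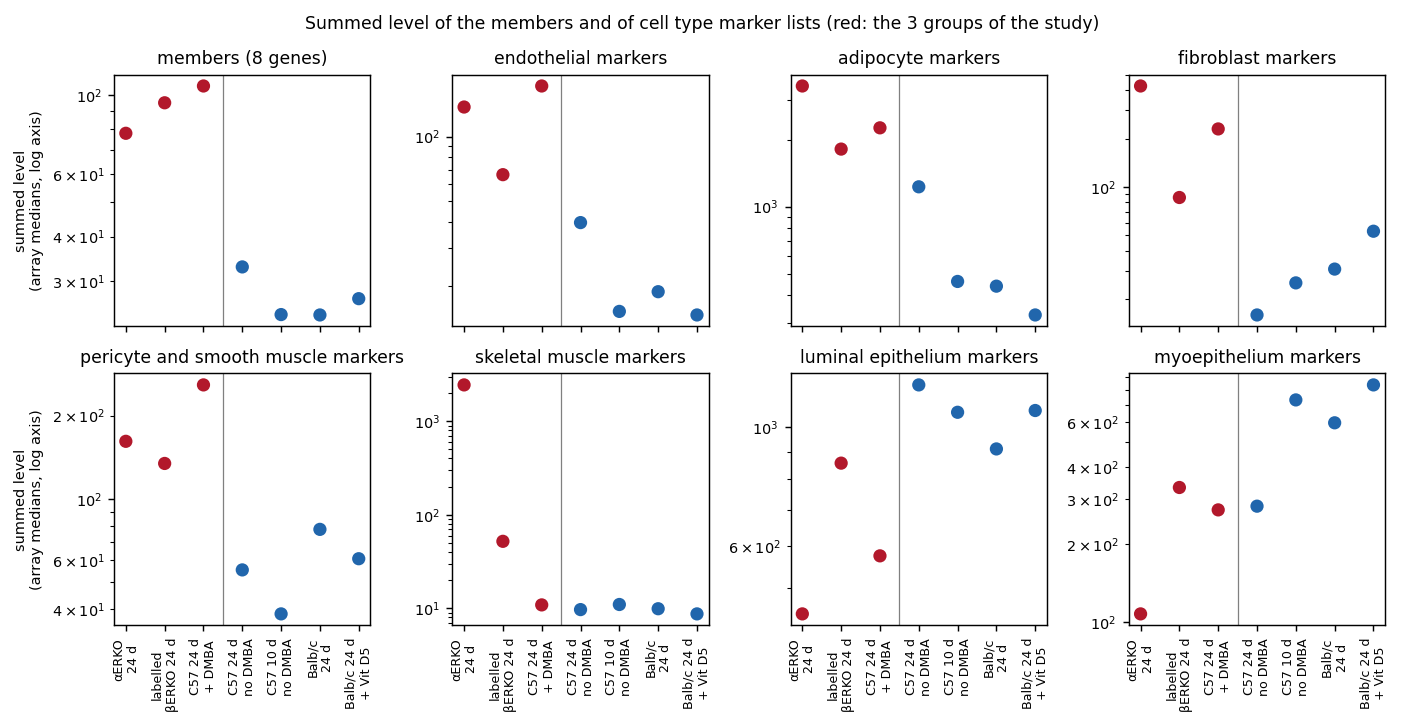
Summed level in array medians (vertical axis, log scale, ranges differ between panels) of the members and of 7 marker lists on each of the 7 arrays (horizontal axis), red for the study's 3 groups and blue for the other 4. The members, endothelial, adipocyte, fibroblast and pericyte sums are higher on every red array than on any blue one, luminal sums are lower, and the skeletal muscle sum of 2445 belongs to the αERKO array alone.

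Genes whose levels ran most like the members were sought among 9333 genes good on all 7 arrays, by Pearson r with the mean of Col4a1, Col4a2, Lamb1, Lamc1 and Nid1. The 5 nearest were Dse at 0.991, an epimerase of dermatan sulphate synthesis, Grk5 at 0.991, a receptor kinase, Cspg4 at 0.990, the pericyte proteoglycan, Itih5 at 0.990, a hyaluronan-binding protein, and Cma1 at 0.989, a mast cell protease. With 7 points that differ in several ways at once, these values describe likeness only.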

How the data were processed

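RNA of cultured mammary glands was measured on 1-colour CodeLink Mouse Whole Genome arrays, 1 array per group and 7 in all. The authors deposited for each spot an intensity, computed as spot mean minus median local background, and a quality flag. Intensities of 34967 gene probes were divided by the array's median over them, as in the study's methods, after 320 negative and 300 positive control spots were left out. Before taking log2, values not above 0 were set to the lowest positive value of the same array. A probe was tested in a comparison where either of its arrays had a good spot, and called where the ratio was over 2-fold. A probe near background on 1 array was given as a bound, against the higher of that array's lowest good intensity and its own. Probes were named through RefSeq (GRCm38.p6), which matched 14763 of 15553 RefSeq accessions, and a gene with several probes was given by the brightest. The series table, whose rows name no probe, and the deposited normalized intensity were not used for main values, the latter being an alternative.

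Members and gene lists were chosen with earlier results of these data known. Other genes were named by a rule: of each basement membrane list, at most 5 per comparison over 2-fold and good on both arrays, and the 5 genes nearest to the members' mean profile. An item of the list of other basement membrane genes is not reported here and was left out of its counts. Alternatives were quantile and cyclic loess normalization and normexp background correction with offset 50 (limma 3.58.1 in R 4.3.3), the 75th percentile, the deposited normalized intensity, the median over a gene's probes, spots good on both arrays, and thresholds of 1.5-fold and 3-fold. The rest was computed in Python 3.11.15, and the calculation was tested on simulated data. The number of arrays limits the precision.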

Additional observations from a re-analysis of the deposited data

How the results depend on the processing

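Normexp background correction moved dim probes most: the median log2 ratio of the members became 1.39 with DMBA and 0.31 for culture time, and the counts over 2-fold became 0 for culture time and 0 for Vitamin D5. With spots good on both arrays required, the counts were 1 for culture time and 0 for Vitamin D5. At 3-fold they were 1 for culture time, 1 for strain and 1 for αERKO against WT. At 1.5-fold they were 4 for culture time, 4 for αERKO against WT, 1 for the array labelled βERKO against WT and 2 for αERKO against that array. Of 336 values of single members under other processing, 13 moved by more than the SD of a single probe's log2 ratio. Each of them was under normexp, where 43 did not move, and none of the values over 2-fold changed sign. The 336 include 56 from the median over a gene's probes, which could not move because each member has 1 probe. Another 56 came from the deposited normalized intensity, which shifted all probes in median by at most 0.005. The total therefore overstates how far stability was checked. All probes shifted in median by up to 0.22 under the 75th percentile (strain), 0.14 under cyclic loess (DMBA) and -0.11 under normexp (both knockouts against WT). The 6 members above on the study's arrays were 6 under each scaling, an alternative chosen after seeing the data. Nid2 and Lama4 near background have bounds only. No paired analysis was possible because each group has 1 array.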
